A study of Mus musculus with 4 samples.

Results

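The C/EBP family was followed by the 7 genes Cebpa, Cebpb, Cebpd, Cebpe, Cebpg, Cebpz and Ddit3, taken as every non-control probe whose gene name on the array was that of a member. The rule gave 7 probes, 1 for each gene, of 39429 non-control probes. All 7 passed the filter on dim probes, as part of 20337 probes and 16081 genes that were fitted. Each member was well above background on all 8 channels, so none was kept through 1 treatment alone.

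C/EBP proteins are transcription factors of the basic leucine zipper (bZIP) class. They bind DNA as dimers, with themselves or with each other, so the balance among members bears on which genes they drive. In liver, C/EBPα maintains the metabolic programme of hepatocytes, while C/EBPβ and C/EBPδ are known for the acute phase response to inflammation. The pseudokinase TRIB1 brings C/EBPα to the ubiquitin ligase COP1, which marks it for degradation.

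The tested RNA, labelled AAV_Cre, came from whole livers of mice given an adeno-associated virus carrying Cre recombinase. The control RNA, labelled AAV_Null, came from mice given a control virus. Mice of both treatments were female, of strain C57B/6, homozygous for a floxed Trib1 allele, 8 to 10 weeks old and fasted for 4 hours, and livers were taken 1 week after the virus. There were 4 Agilent 2-colour arrays, each carrying 1 RNA of each treatment. Arrays 1 and 2 had AAV_Cre in Cy5, and arrays 3 and 4 had it in Cy3. The sources used here do not give the promoter that drives Cre, the part of Trib1 that is floxed, or whether an RNA was 1 animal or a pool. The p-values therefore measure the spread between arrays of 1 dye orientation and not a known number of animals. In whole liver, fewer cells of a type and less RNA per cell cannot be told apart.

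Across the arrays, between 53.1% and 55.0% of spots in the AAV_Cre channels and between 51.0% and 58.7% in the AAV_Null channels were well above background, and 0 of 43020 non-control spots were saturated. The number of arrays limits the precision. Trib1, the targeted gene, was higher and not lower in RNA labelled AAV_Cre. Its probe of highest intensity had log2 ratios of 0.64, 1.02, 1.09 and 1.01 on arrays 1 to 4, and a fitted value of 0.94 ± 0.08 (SE, n = 4 arrays; limma adjusted p = 0.0210). A further probe to the same transcript gave 1.29 ± 0.11, and a dim probe to another annotated transcript gave -0.047 ± 0.049. A probe outside a deleted part would check nothing, so the label is neither borne out nor contradicted here, and directions below are those of the labels. The 5 hepatocyte markers Alb, Apoa1, Ttr, Serpina1a and Cyp2e1 were well above background on all 8 channels. Their log2 ratios were -0.39, -0.38, -0.10, 0.08 and -0.28, none called, and their summed linear intensity ran between 665649 and 1238961 in RNA labelled AAV_Cre, against 856562 to 1243829 in RNA labelled AAV_Null. The part of hepatocyte content in the Cebpa result was not tested.

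The members were read by 60-base probes, and the opening 30 bases of each are shown because a family with a shared DNA-binding region is open to cross-hybridisation. Positions are given on mm9, from the array's own annotation, with the base of the transcript at which each probe starts.

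Cebpa, chr7:35906517-35906576, from base 2205: ttttgttttggttttgctctgattcttgcc
Cebpb, chr2:167515828-167515887, from base 1413: agaggcgtatgtatattttgagaacctttt
Cebpd, chr16:15888459-15888518, from base 1080: gacatttccgacagacttttgtagataaga
Cebpe, chr14:55329200-55329259, minus strand, from base 1178: attgggaaggtcgggaccaaatgattctgt
Cebpg, chr7:35835477-35835536, minus strand, from base 606: aaattaagttgctgacaaaggaattaagtg
Cebpz, chr17:79320086-79320999, minus strand, across an intron, from base 2896: tttgactttgctgggtcatttcaaggacaa
Ddit3, chr10:126732518-126732821, across an intron, from base 288: ccccaggaaacgaagaggaagaatcaaaaa

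No letters are in capitals because no motif was marked in these probes. Aligned without gaps, a member probe shared at most 22 of 60 bases with the probe of any other member. The longest exact run that a member probe shared with a probe of another gene name was between 13 and 16 bases. Probes were compared with each other and not with whole transcripts. GC content ran between 35% and 50%.

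Cebpa and Cebpe were lower in RNA labelled AAV_Cre, and no member was called higher. In limma with Benjamini-Hochberg adjustment over all genes at 0.05, 2 of the 7 members were called, against 2.76% of all genes. Both were called lower, as were 0.976% of all genes, while 1.78% of all genes were called higher. At an unadjusted p under 0.05 there were 3 of 7 members, with Cebpd the 1 higher, against 22.6% of all genes (3634 of 16081). The median log2 ratio of the 7 members was 0.01, beside -0.0025 over all genes. The 4 members Cebpb, Cebpg, Cebpz and Ddit3 each lay within 0.05 of 0.

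**Figure D1:**
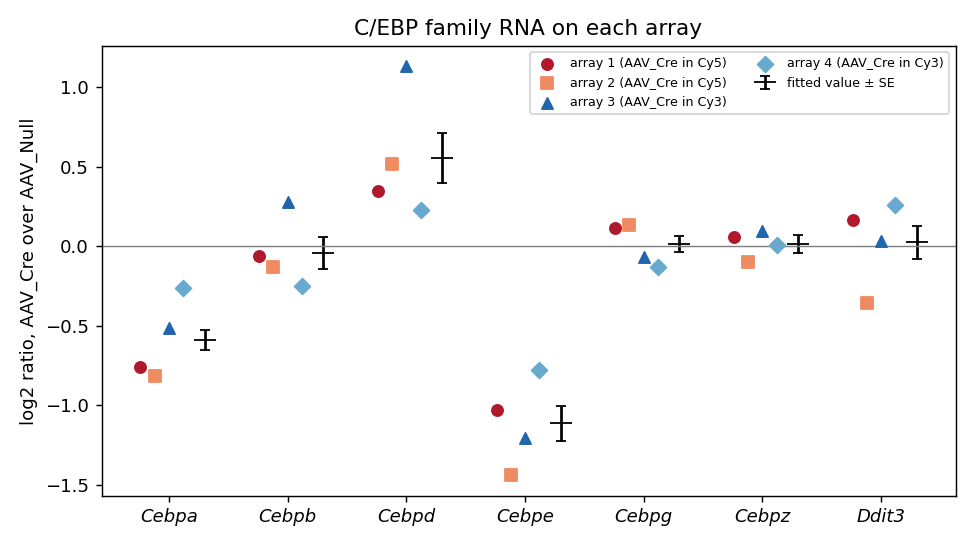
Log2 ratio of AAV_Cre over AAV_Null (vertical axis) for the 7 members (horizontal axis) on each of the 4 arrays, with the fitted value and its SE in black. All 4 points of Cebpa and of Cebpe lie below 0 and all 4 of Cebpd above it, while the points of the other 4 members fall on both sides.

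Cebpa encodes C/EBPα, the member that sustains glucose and lipid genes in adult hepatocytes and the substrate of the TRIB1 and COP1 complex. Its log2 ratios were -0.76, -0.82, -0.51 and -0.27 on arrays 1 to 4, so RNA labelled AAV_Cre was the lower of the pair on 4 of 4 arrays. The fitted value was -0.59 ± 0.06 (SE, n = 4; limma adjusted p = 0.0298), or 0.665 of the AAV_Null level. Arrays 1 and 2 lay further below 0 than arrays 3 and 4, with means of -0.79 and -0.39, and the fitted dye effect of -0.20 had an adjusted p of 0.157. The SE does not hold that split between orientations. As log2 normalised intensity, Cebpa had 11.26, 11.69, 11.78 and 12.10 in RNA labelled AAV_Cre, against 12.02, 12.51, 12.29 and 12.36 in RNA labelled AAV_Null. The highest AAV_Cre level, on array 4, was above the lowest AAV_Null level, on array 1, so the levels overlapped across arrays although every pair went the same way. Without a dye effect in the fit the adjusted p was 0.0632, and with a background offset of 10 it was 0.0554.

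Cebpe encodes C/EBPε, which is known for the late maturation of granulocytes. Its log2 ratios were -1.03, -1.44, -1.21 and -0.78 on arrays 1 to 4, lower in RNA labelled AAV_Cre on 4 of 4. The fitted value was -1.11 ± 0.11 (SE, n = 4; limma adjusted p = 0.0245), or 0.462 of the AAV_Null level, and 15 of 16081 genes had a log2 ratio this low or lower. Its levels were 10.68, 10.66, 10.29 and 10.94 in RNA labelled AAV_Cre, against 11.71, 12.10, 11.50 and 11.72 in RNA labelled AAV_Null. Cebpe was the 1 member of 7 whose levels did not overlap between treatments, as was so for 5.85% of the 15705 genes with all 8 levels. The call of each of Cebpa and Cebpe was lost when any 1 array was left out, with log2 ratios between -0.65 and -0.53 for Cebpa and between -1.22 and -1.01 for Cebpe, and adjusted p of at least 0.0739 and 0.0731.

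**Figure D2:**
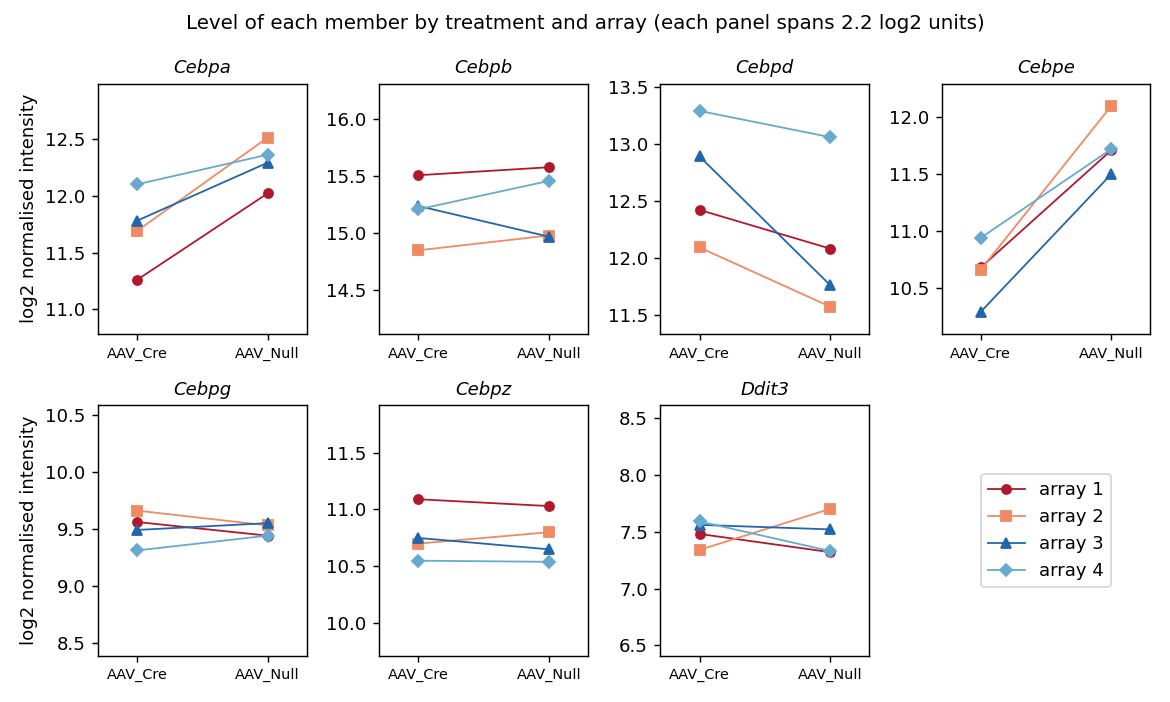
Log2 normalised intensity (vertical axis, each panel spanning the same range) of each member in RNA labelled AAV_Cre and in RNA labelled AAV_Null, with a line for each array. All 4 lines of Cebpa and Cebpe climb to AAV_Null and all 4 of Cebpd descend, and the AAV_Cre and AAV_Null points of Cebpe do not overlap.

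Cells that use Cebpe were looked at beside it. Of 6 neutrophil markers (S100a8, S100a9, Ly6g, Csf3r, Cxcr2 and Retnlg), 5 passed the filter on dim probes, and Cxcr2, a chemokine receptor, was not well above background on any channel. Their summed linear intensity ran between 29202 and 34566 in RNA labelled AAV_Cre, against 26952 to 39313 in RNA labelled AAV_Null, and the ranges overlapped. Most of that sum was Csf3r, with mean log2 levels of 14.73 in AAV_Cre and 14.88 in AAV_Null. The next brightest, S100a9, had 11.08 and 11.57, so the sum says little about the other markers. S100a9, a calcium-binding protein of neutrophils, had a log2 ratio of -0.49 ± 0.52 (SE, n = 4; limma adjusted p = 0.623), with 1.54 on array 3 and between -1.59 and -0.75 on the others. Of 11 measured neutrophil and myeloid markers, 0 were called in limma and 2 had an unadjusted p under 0.05, against 22.6% of all genes. Their median was -0.14, and it was -0.30 without array 3, 0.03 without array 4 and 0.0058 with no filter on dim probes. Of 12 genes for granule proteins and other products of maturing granulocytes, Ltf, Ngp, Mmp8, Mmp9, Cd177 and Ctsg were not measured. The counts below do not speak for those. Of the 6 that were measured, 0 were called in limma, with 1 at an unadjusted p under 0.05 against 22.6% of all genes. Their median was -0.27, -0.026, 0.48 and -0.51 on arrays 1 to 4, so the fitted -0.0055 lay between opposed arrays, and it was -0.30 without array 3 and 0.21 without array 4. In that list Csf3r, the G-CSF receptor, had -0.15, Prtn3, a granule protease, -0.29, Mpo, myeloperoxidase, 0.22 and Elane, neutrophil elastase, -0.020. Elane was split by dye orientation. Lcn2 and Camp, also measured in that list, had 0.018 and 0.0086, with 1.12 and 1.34 on array 3 and lower values on the others. The part of neutrophil content in the Cebpe result was not tested.

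Cebpd encodes C/EBPδ, which is induced in liver during the acute phase. Its log2 ratios were 0.35, 0.52, 1.13 and 0.23 on arrays 1 to 4, above 0 on 4 of 4, with array 3 the highest. The fitted value was 0.56 ± 0.16 (SE, n = 4; limma adjusted p = 0.142), with a 95% interval of 0.14 to 0.97 from the fit before adjustment over genes. Its levels were 12.42, 12.09, 12.89 and 13.29 in RNA labelled AAV_Cre, against 12.08, 11.57, 11.76 and 13.06 in RNA labelled AAV_Null, and they overlapped, array 4 being high in both. Without array 3 the log2 ratio was 0.33, and without array 4 it was 0.78. Cebpd passed the threshold where the arrays were only median centred (adjusted p = 0.0486) or not normalised within arrays (adjusted p = 0.000575). In the latter setting every member had the same SE of 0.135, so that p-value does not hold the spread of Cebpd itself.

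Cebpb encodes C/EBPβ, a partner of C/EBPα that also serves the acute phase response and gluconeogenesis. Its log2 ratios were -0.063, -0.13, 0.28 and -0.25 on arrays 1 to 4, with array 3 alone above 0. The fitted value was -0.043 ± 0.10 (SE, n = 4; limma adjusted p = 0.831), with a 95% interval of -0.31 to 0.22. Its levels lay between 14.85 and 15.51 in RNA labelled AAV_Cre and between 14.97 and 15.58 in RNA labelled AAV_Null, and they overlapped.

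Array 3 also stood apart in the median of genes that C/EBPβ and C/EBPδ are known to drive. Of 18 measured acute phase genes 0 were called in limma, and 0 had an unadjusted p under 0.05, against 22.6% of all genes. Their median log2 ratio was -0.33, -0.24, 0.68 and -0.40 on arrays 1 to 4. It was -0.053 in the fit, -0.41 without array 3 and 0.14 without array 4. The serum amyloid genes Saa1 and Saa2 had 1.18 and 1.61 on array 3. On the other arrays Saa1 lay between -0.89 and -0.24 and Saa2 between -1.0 and -0.36. Lcn2, a siderophore-binding protein, had 1.12 on array 3 and between -0.64 and 0.21 elsewhere. Il1b, Itih4, Il6 and Fgg, the list's members of smallest p, had -0.22, -0.35, -0.34 and -0.29. On array 3 they had -0.33, 0.0048, 0.13 and -0.015, so not every gene of the list was raised there.

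**Figure D3:**
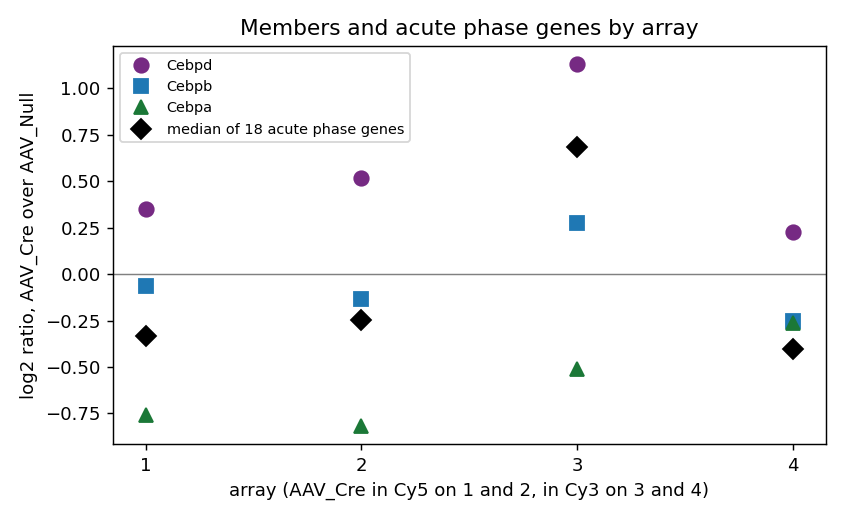
Log2 ratio of AAV_Cre over AAV_Null (vertical axis) on each array (horizontal axis) for Cebpd, Cebpb and Cebpa and for the median of 18 acute phase genes. On array 3 the acute phase median is 0.68 and Cebpd and Cebpb have their highest values, 1.13 and 0.28, while Cebpa lies below 0 on every array.

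Cebpg, Cebpz and Ddit3 had values on both sides of 0. Cebpg encodes C/EBPγ, a short member without the activation domains of the others that acts through its dimers. It had 0.12, 0.14, -0.066 and -0.13 on arrays 1 to 4, split by dye orientation, and a fitted value of 0.01 ± 0.05 (SE, n = 4; limma adjusted p = 0.894). Its levels lay between 9.31 and 9.66 in RNA labelled AAV_Cre and between 9.44 and 9.55 in RNA labelled AAV_Null.

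Ddit3 encodes CHOP, a stress-induced member that pairs with other C/EBP proteins and blocks their binding to classical sites. It had 0.16, -0.36, 0.035 and 0.26 on arrays 1 to 4 and a fitted value of 0.02 ± 0.10 (SE, n = 4; limma adjusted p = 0.911). With levels between 7.34 and 7.59 in RNA labelled AAV_Cre and between 7.32 and 7.70 in RNA labelled AAV_Null, its probe was among the dim ones, at rank 13503 of 16081 genes by mean intensity. The 95% interval of its log2 ratio was -0.25 to 0.30.

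Cebpz carries the family symbol but encodes a CCAAT-binding protein without a bZIP region, whose yeast counterpart works in ribosome assembly. It had 0.058, -0.097, 0.096 and 0.0093 on arrays 1 to 4 and a fitted value of 0.02 ± 0.06 (SE, n = 4; limma adjusted p = 0.886). Its levels overlapped, between 10.55 and 11.09 in RNA labelled AAV_Cre and between 10.54 and 11.03 in RNA labelled AAV_Null. Of 18 ribosome biogenesis genes 0 were called in limma, 3 had an unadjusted p under 0.05, against 22.6% of all genes, and their median was -0.027. Among them Fbl, fibrillarin, had -0.21, Dkc1, dyskerin, -0.28, Pes1 0.13 and Nop56 -0.10. Pes1 was split by dye orientation.

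Because C/EBP proteins work as dimers, the members were also set against Cebpa on the same array. Cebpb minus Cebpa, as a difference of log2 ratios, was 0.70, 0.69, 0.79 and 0.01 on arrays 1 to 4, with a mean of 0.55 ± 0.36 (SD, n = 4). Cebpd minus Cebpa was 1.11, 1.34, 1.65 and 0.49, with a mean of 1.15 ± 0.49 (SD, n = 4). Cebpe minus Cebpa was -0.27, -0.62, -0.70 and -0.51, below 0 on 4 of 4. With 4 arrays a two-sided exact sign permutation test cannot go below 0.125, the value all 6 members gave, so these differences are a description. Cebpb, Cebpg, Cebpz and Ddit3 lay near 0, and their differences mostly restate the values of Cebpa. Protein was not measured.

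**Figure D4:**
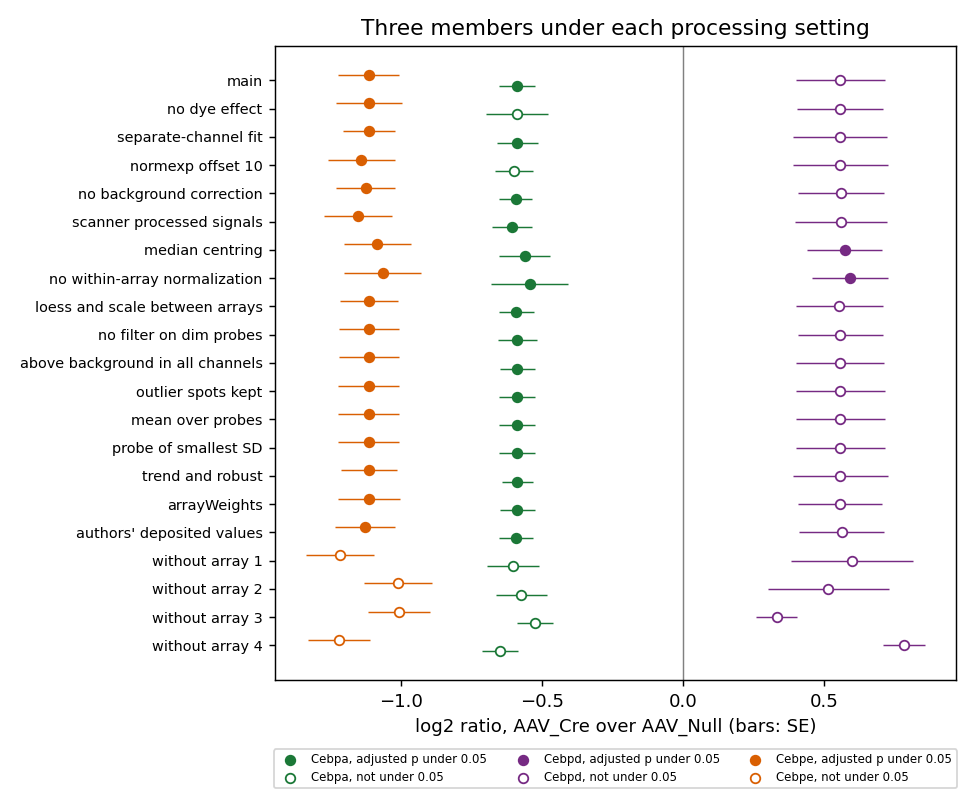
Log2 ratio of AAV_Cre over AAV_Null with its SE (horizontal axis) for Cebpe, Cebpa and Cebpd under each processing setting (vertical axis), filled where the adjusted p was under 0.05. Cebpe and Cebpa stay below 0 and Cebpd above 0 under every setting shown, and no point is filled where an array was left out. Settings that kept every array and changed only the fit, the probe filter, outlier spots or the choice of probe reuse the same ratios, so their values could not move.

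The promoter of Cebpa is shown because C/EBPα is known to act on its own gene through a site there. The sequence is the 250 bases before the RefSeq start of Cebpa, on GRCm38.p6, chr7:35119043-35119292, plus strand. Capitals mark the letters TTGCG, the core of a C/EBP site.

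Cebpa: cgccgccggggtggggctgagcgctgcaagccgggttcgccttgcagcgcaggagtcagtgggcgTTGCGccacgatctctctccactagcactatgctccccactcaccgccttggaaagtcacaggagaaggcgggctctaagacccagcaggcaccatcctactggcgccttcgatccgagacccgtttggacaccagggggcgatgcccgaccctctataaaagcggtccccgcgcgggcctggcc

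The match began 185 bases before the start. Both strands were searched for TTGCG and for the C/EBP core TTNNGNAA, which can overlap it. The CCAAT box, the TATA box as TATAAA, the stress element core TGATGNAA and the E-box CACGTG were searched likewise. Of 32817 promoter windows of 250 bases, 14.5% held TTGCG and 36.8% held TTNNGNAA. The Cebpa window held TATAAA at 30 bases before the start, as 12.4% of windows did, and none of the other 4 motifs. The promoter table had 4 of the 7 members. In the windows of Cebpb, Cebpg and Ddit3 neither C/EBP motif was found. Cebpg held CCAAT at 2 places and Ddit3 at 1, as 33.8% of windows did at least once. TGATGNAA and CACGTG, found in 3.45% and 6.02% of windows, were in none of the 4. A match is a description of letters and not a site in use.

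Cebpg and Cebpa lie 62.7 kb apart on chromosome 7 in the RefSeq table of GRCm38.p6. For Cebpe, the nearest measured neighbours were Slc7a8, an amino acid transporter, at -0.044 (limma adjusted p = 0.816) and 1700123O20Rik at 0.28 (adjusted p = 0.0719). The 4 closest annotated genes around Cebpa were not on the array by name. Cebpzos, next to Cebpz, had 0.02 and Spidr, next to Cebpd, had 0.23. Prkd3, near Cebpz, had -0.33, with the lowest adjusted p of the measured neighbours (limma adjusted p = 0.0536). No measured neighbour of a member was called.

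The genes closest to Cebpa over the 4 arrays, by root mean square difference of log2 ratios among 12132 genes with a value on every array and a name other than a clone or model name, were Rnf152, Zap70, Neu1, Amacr and Fbxo21, with differences between 0.053 and 0.14. The closest to Cebpe were Limd2, Nat8f1, Adh4, Arhgap6 and Sult2a8, with differences between 0.17 and 0.29. These 10 genes had fitted log2 ratios between -0.64 and -0.53 around Cebpa and between -1.11 and -0.85 around Cebpe. The measure compares 4 values that share their arrays, and it is given with no test.

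Of 17 measured genes that depend on C/EBP factors in hepatocytes, 0 were called in limma, against 2.76% of all genes. At an unadjusted p under 0.05 there were 8 of the 17, against 22.6% of all genes, and 8 of the 17 lay below 0. Their median was 0.03, beside -0.0025 over all genes, and was -0.0042 without array 3, 0.15 with median centring and 0.16 without within-array normalisation. Alb, albumin, had 0.39, 0.27, -0.95 and -1.27 on arrays 1 to 4, split by dye orientation, and a fitted value of -0.39 (adjusted p = 0.0748). Hamp, hepcidin, had 0.30 (adjusted p = 0.107), the urea cycle enzyme Cps1 0.24 (adjusted p = 0.160) and Otc, of the same cycle, -0.28 (adjusted p = 0.180).

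Of 24 measured bZIP partners and relatives of C/EBP, 2 rose, 0 fell and 22 did not pass, against 1.78% of all genes called higher and 0.976% called lower. The median of the 24 was -0.049. An unadjusted p under 0.05 in limma was reached by 8 of them, against 22.6% of all genes. Nfil3, a repressor that binds C/EBP-like sites, rose by 0.77 ± 0.08 on the log2 scale (SE, n = 4; limma adjusted p = 0.0311), with values between 0.62 and 1.06 on the 4 arrays. Nfe2l2, the oxidative stress regulator NRF2, rose by 0.70 ± 0.09 (SE, n = 4; adjusted p = 0.0418), with values between 0.50 and 0.97. Crebzf had -0.40 (adjusted p = 0.0634) and Creb3l3, a liver membrane-bound factor, -0.26 (adjusted p = 0.0791).

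Of 16 genes tied to CHOP and ATF4, 1 rose, 0 fell and 15 did not pass, with a median of 0.08. Of all genes, 1.78% were called higher and 0.976% lower. At an unadjusted p under 0.05 in limma there were 5 of the 16, against 22.6% of all genes. Tnfrsf10b, a death receptor and known target of both CHOP and p53, rose by 0.93 ± 0.07 on the log2 scale (SE, n = 4; limma adjusted p = 0.0158). Asns, asparagine synthetase, had 1.29, 0.41, 2.85 and 1.49 on arrays 1 to 4, and its fitted value of 1.51 did not pass (adjusted p = 0.0688). Vldlr, a lipoprotein receptor, had 1.04 (adjusted p = 0.0709) and Trib3, a Tribbles gene induced by stress, -0.36 (adjusted p = 0.0981). Trib3 was split by dye orientation.

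Among 10 measured Tribbles and COP1 ligase genes, Trib1 rose, the cullin Cul4b fell by 0.38 on the log2 scale (limma adjusted p = 0.0406), and 8 did not pass. Of all genes, 1.78% were called higher and 0.976% lower. An unadjusted p under 0.05 was reached by 4 of the 10, against 22.6% of all genes. Among 14 other transcription factors of the liver lineage 1 rose, 0 fell and 13 did not pass, against the same shares of all genes, with a median of 0.01. An unadjusted p under 0.05 was reached by 6 of the 14, against 22.6% of all genes. The called gene was Onecut1, also known as HNF6, at 0.55 (adjusted p = 0.0217). It had -0.066, -0.12, 1.22 and 1.19 on arrays 1 to 4, split by dye orientation. Nr1h4, the bile acid receptor FXR, had 0.40 (adjusted p = 0.0521), the pioneer factor Foxa1 -0.39 (adjusted p = 0.0581) and Prox1 0.22 (adjusted p = 0.119). Prox1 was split by dye orientation.

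**Figure D5:**
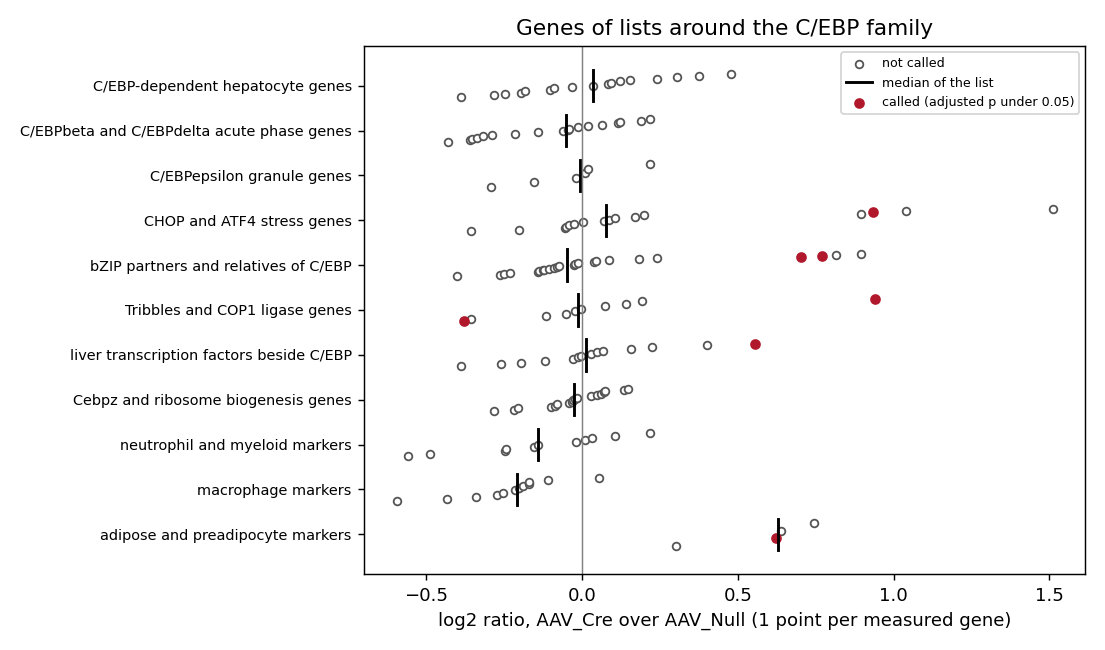
Log2 ratio of AAV_Cre over AAV_Null (horizontal axis) of each measured gene of 11 lists (vertical axis), with called genes filled and each list's median as a black bar. The called genes lie to the right of 0 except Cul4b at -0.38, and most points of the C/EBP-dependent lists lie within 0.5 of 0.

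Pparg, a nuclear receptor that C/EBP proteins induce in fat cells, rose by 0.62 ± 0.06 on the log2 scale (SE, n = 4; limma adjusted p = 0.0225), with values between 0.49 and 0.69 on the 4 arrays. Of 8 adipose genes 4 were measured and 1 was called, against 1.78% of all genes called higher. The other 3, Fabp4, Car3 and Retn, had 0.30, 0.64 and 0.75 and did not pass. An unadjusted p under 0.05 in limma was reached by 4 of the 4 measured adipose genes, against 22.6% of all genes. The fat cell markers Adipoq, Lep and Plin1 were not well above background on any channel. Of 12 macrophage markers 0 were called in limma, against 2.76% of all genes. At an unadjusted p under 0.05 there were 2 of the 12, against 22.6% of all genes. Below 0 lay 11 of the 12, with a median of -0.21. The median was -0.47 without array 3 and -0.0025 without array 4. By array it was -0.33, -0.23, 0.33 and -0.64 on arrays 1 to 4, with array 3 again the highest. Summed over 6 macrophage markers, linear intensity ran between 26177 and 52309 in RNA labelled AAV_Cre, against 38022 to 60043 in RNA labelled AAV_Null.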

How the data were processed

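RNA from whole liver was hybridised to 4 Agilent 2-colour arrays. The deposited scanner files hold the spot intensity and local background of both dyes, and a log10 ratio of Cy5 over Cy3, written by the scanner software (Feature Extraction, version 11.5.1.1). The authors also deposited a log2 table, for which the submitters' processing notes name limma. Its slope against the log10 ratio was 3.34, 3.33, -3.29 and -3.39 on arrays 1 to 4, so it holds AAV_Cre over AAV_Null. Its medians were -0.022, -0.038, 0.035 and 0.041, and its normalisation is not given in the sources used here.

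Mean intensities were corrected by normexp (offset 50) and normalised by loess within arrays in limma 3.58.1, under R 4.3.3. Control spots had weight 0, and spots marked as outliers were left out. Probes well above background in at least 3 of 4 channels of 1 treatment, with an unmarked spot on at least 3 arrays, were fitted with a treatment and a dye effect (lmFit, eBayes). A gene was its probe of highest mean intensity, with Benjamini-Hochberg adjustment over 16081 genes. Channel levels were scaled by Aquantile between arrays. The fit was tested on simulated data.

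Gene symbols came from the GRCm38.p6 RefSeq table, by accession for 27508 probes, 3544 by current symbol and 404 by synonym, and 7973 kept the array's name. The members and 11 gene lists were chosen with earlier results of these data known. Named genes are the members, Trib1, called list members and up to 4 of smallest p in each list, the 5 genes most like each called member, and neighbouring genes. Saa1, Saa2, Lcn2, Camp, S100a9 and markers of cell types were named after their values were seen. Figures were drawn with matplotlib 3.10.9.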

Additional observations from a re-analysis of the deposited data

Results flagged for a closer look

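Of 61 values measured on 4 arrays (members, Trib1 probes, named list genes and list medians), 4 had a single array standing well apart. About 3.1 would do so by chance alone. The median of the acute phase genes was 0.683 on array 3 and between -0.401 and -0.244 on the others. Mpo had 0.868 on array 3 and between -0.026 and 0.030 on the others. Csf1r, the macrophage growth factor receptor, had 0.258 on array 3 and between -0.403 and -0.346 on the others. Crebzf had -0.184 on array 4 and between -0.483 and -0.458 on the others. Cebpg was above 0 on both arrays with AAV_Cre in Cy5 and below 0 on both with AAV_Cre in Cy3, with a dye effect of 0.113 that did not pass (limma adjusted p = 0.245).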

How the results depend on the processing

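Under 16 settings that kept all 4 arrays, Cebpe was below 0 and called in 16, and Cebpa was below 0 in 16 and called in 14. Those that changed only the fit, the probe filter, outlier spots or the choice of probe reused the same ratios of 1 probe per member. Their values were those of the main fit, -0.59 for Cebpa and -1.11 for Cebpe. In them only the SE and adjusted p could change, so their signs are not separate evidence. Cebpa was not called without a dye effect (-0.59) and with a background offset of 10 (-0.60), and 1 member was then called in each. Cebpd was above 0 in 16 and called with median centring (0.57) and without within-array normalisation (0.59). In that last setting every member had the same SE of 0.135, whatever its own spread. With 1 array left out, 0 members were called in limma (2 to 3 at an unadjusted p under 0.05), Cebpa lay between -0.65 and -0.53 and Cebpe between -1.22 and -1.01. Each array left out leaves 1 residual degree of freedom. Over all genes, 444 were called. The count was 270 without a dye effect, 2529 in the separate-channel fit, 192 with an offset of 10, 1403 without background correction, 731 with the scanner's processed signals, 756 with median centring, 769 without within-array normalisation, 1471 with a trended robust prior, 1371 with the authors' deposited values and 1287 at an adjusted p of 0.10. In limma it was 13 without array 1, 0 without array 2, 37 without array 3 and 0 without array 4, where between 2109 and 3307 genes had an unadjusted p under 0.05. The causes of these shifts were not tested. Of 220 list medians under the alternatives, 212 moved by less than 1 SD between arrays, but that SD is wide and several turned sign. Beside the medians given above, CHOP and ATF4 genes had -0.018 without array 2, against 0.078. Liver factors had -0.017 without array 3 and -0.0042 with no filter on dim probes, against 0.013. Tribbles and COP1 genes had 0.061 with median centring and 0.079 without within-array normalisation, against -0.013. Adipose genes had 0.23 with no filter on dim probes, against 0.63. Log2 ratios were taken within arrays, which pairs the RNAs of an array, and array numbers were shared by no other samples.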
